A study of Mus musculus with 2 samples.

Results

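Trimethylation of lysine 4 of histone H3 (H3K4me3) was examined over 130 kb of mouse chromosome 8, from 60.15 to 60.28 Mb on build mm8, the stretch that holds the gene Hand2 and the lncRNA Hand2os1, transcribed away from it. The members were chosen by position: all 650 windows of 200 bp in that stretch, listed with a read or not, and the reads that fall there. Of these windows 252 were listed in WT and 146 in Lsh_KO. Over the genome 2237123 windows were listed in WT, 2191912 in Lsh_KO and 3719848 in either library. The stretch had been picked because its H3K4me3 differed between the libraries, so the ratios below describe it and no test was made. The edges set by the rule were quiet: the 2 kb windows at the ends of the stretch held 1 or 2 WT and 1 or 3 Lsh_KO reads, and the windows just beyond them held 1 or 2 and 0 or 1.

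The study compared a line of mouse embryonic fibroblasts with the wild-type gene Lsh (Lsh+/+, WT) with a line that lacks it (Lsh-/-, Lsh_KO). Lsh (gene name Hells) encodes an SNF2-type ATPase that remodels nucleosomes, and cells without it are known to have lost much of their DNA methylation. Chromatin of 20000000 cells per line was digested by micrococcal nuclease into nucleosome-sized pieces, and those bound by an H3K4me3 antibody were sequenced. Each genotype had 1 library, so a difference between these lines that has nothing to do with Lsh cannot be told apart from one that follows its loss. The labels do not say how the allele was made, how old the embryos were, or whether a line came from 1 embryo.

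Hand2 encodes a basic helix-loop-helix transcription factor of the Twist family, which binds E-box DNA as a dimer with E proteins. It is known for its roles in the developing heart, limb bud, pharyngeal arches and sympathetic neurons. Hand2os1 (also Uph) is a long non-coding RNA that starts beside Hand2 and runs in the other direction. H3K4me3 lies on the nucleosomes around active and poised starts, usually in a narrow peak, and spreads over many kilobases at some genes of cell identity.

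Start sites were placed on mm8 by deposited reads whose 25 bases lie inside the RefSeq promoter sequence (build GRCm38.p6). Only promoter sequences whose matching reads gave a single position were used. Hand2 was placed at 60213125 on the plus strand by 6 reads, Hand2os1 at 60213001 on the minus strand by 8, and the lncRNA Gm34030 at 60225881 on the minus strand by 11, all of them from WT. The divergent starts of Hand2 and Hand2os1 thus lie 124 bp apart, and Gm34030 starts 12756 bp beyond Hand2. In the gene order of the reference table the 3 genes before Hand2os1 are Gm33501, Gm7328 and Gm17994, and the 3 after Hand2 are Gm34030, Hdnr and Gm34099. Of these 6, Gm34030 and Gm34099 could be placed, and Gm34099 lies outside the stretch with 1 read in each library within 2 kb of its start.

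The 250 bases before the Hand2 and Gm34030 starts are shown first, since the mark in WT lay around them, with every CG in capitals, because Lsh is needed for DNA methylation and CG is its main site. The Hand2 sequence contains the Hand2os1 start. Both were taken from RefSeq.
Hand2, chr8:57320733-57320982 (GRCm38.p6, plus strand): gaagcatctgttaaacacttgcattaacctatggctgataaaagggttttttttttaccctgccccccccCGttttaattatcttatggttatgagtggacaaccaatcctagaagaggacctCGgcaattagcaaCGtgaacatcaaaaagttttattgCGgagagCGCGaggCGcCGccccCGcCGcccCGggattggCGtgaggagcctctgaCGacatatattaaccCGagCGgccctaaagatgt
Gm34030, chr8:57333740-57333989 (GRCm38.p6, minus strand): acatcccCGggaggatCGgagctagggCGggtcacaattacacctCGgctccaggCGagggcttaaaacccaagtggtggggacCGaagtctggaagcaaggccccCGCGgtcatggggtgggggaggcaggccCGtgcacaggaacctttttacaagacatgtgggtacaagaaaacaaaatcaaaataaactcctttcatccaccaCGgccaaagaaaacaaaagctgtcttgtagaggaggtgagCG
The next pair was rebuilt from the deposited reads without a mismatch, as the longest unbroken runs in the 4 kb before the Hand2os1 start and in the block around the Gm34030 start, and shows WT-marked sequence on which no Lsh_KO read was found.
Before Hand2os1, chr8:60211344-60211507 (mm8, plus strand): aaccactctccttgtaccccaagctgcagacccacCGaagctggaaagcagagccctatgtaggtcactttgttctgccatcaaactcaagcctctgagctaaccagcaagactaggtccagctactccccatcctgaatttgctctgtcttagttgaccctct
Gm34030 block, chr8:60225522-60225673 (mm8, plus strand): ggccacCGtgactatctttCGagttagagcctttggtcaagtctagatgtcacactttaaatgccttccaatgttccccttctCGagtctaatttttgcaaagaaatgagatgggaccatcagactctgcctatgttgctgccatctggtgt
The Hand2 promoter holds 15 CG in 250 bases, and 27.3% of the 32851 RefSeq promoter sequences hold at least as many in their 250 bases (median 6). That of Gm34030 holds 11, reached by 35.6%. The run before Hand2os1 holds 1 CG in 164 bases and 20 distinct WT reads against 0 of Lsh_KO. The run near Gm34030 holds 3 in 152 bases and 12 WT reads against 0. Both runs were chosen by their cover of reads, where nearly all reads came from WT. These read counts therefore follow from the choice and are a description. On both strands of the Hand2 sequence, CCAAT occurs 2 times and GGGCGG 2 times, found in 33.8% and 32.7% of all these promoter sequences, and AGATAA 1 time (9.99%). The E-box CANNTG, the kind of site that Hand2 itself binds, occurs 2 times (66.2%). In the Gm34030 sequence GGGCGG occurs 1 time and CANNTG 2 times, and CCAAT and AGATAA are not in the window. TATAAA is in neither window (12.4% of all promoter sequences hold it).

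In WT the mark formed a broad domain across the Hand2 and Hand2os1 starts. In the deposited windows it covered 11000 bp without a gap of more than 1 kb, from 60209201 to 60220200, that is from position -3924 to 7075 bp relative to the Hand2 start. This region was drawn from windows with at least 6 reads and held 956 reads. Of 10994 WT regions 6 were at least as wide and 2 held at least as many reads, itself included in both counts. A weaker region of 1600 bp and 35 reads lay at 60204801 to 60206400, and one of 2800 bp and 205 reads at 60224001 to 60226800, across the Gm34030 start. In Lsh_KO a single region was drawn, 1800 bp wide with 144 reads, from 60213001 to 60214800. Together the regions covered 15400 bp of the stretch in WT, against 1800 bp in Lsh_KO.

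**Figure D1:**
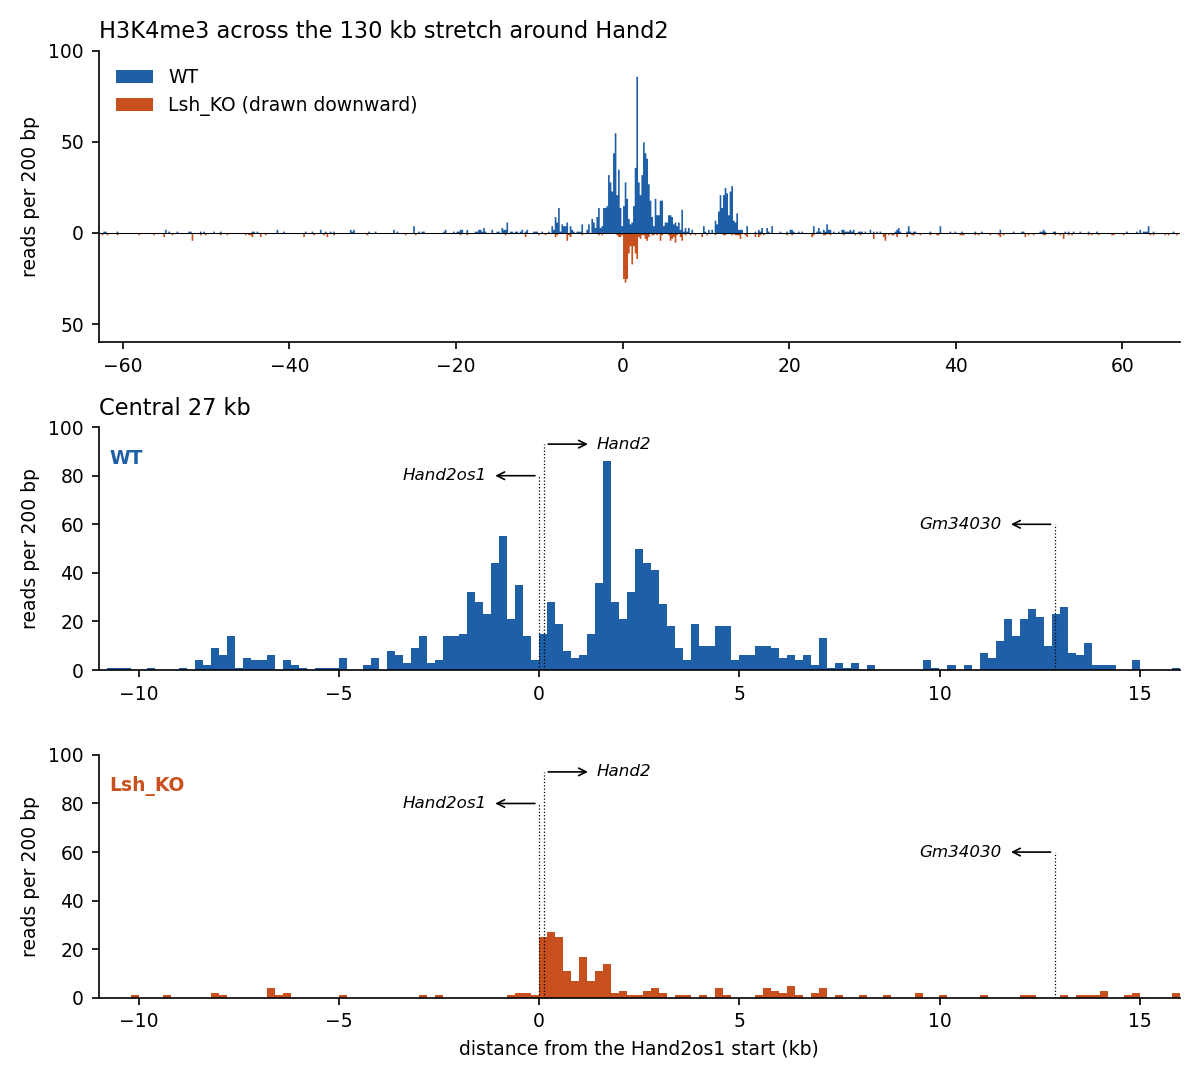
Deposited reads per 200 bp window (y axis) against distance from the Hand2os1 start in kb (x axis), for the whole stretch (top, Lsh_KO drawn downward) and its central part (WT middle, Lsh_KO bottom), with arrows for the placed starts and their direction. WT reached 86 reads in a window, with regions on both sides of the starts and at Gm34030. Lsh_KO reached 27, with a single region of 1800 bp that began at the starts.

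Over the whole stretch WT held 854 distinct reads, counted once per position and strand, and Lsh_KO 216. The ratio of Lsh_KO to WT is given after dividing by 1.42, the median ratio of 2 kb windows marked in both libraries, and its exact conditional (Clopper-Pearson) 95% interval covers counting error only. On that scale the stretch was 5.62-fold lower in Lsh_KO (interval 4.83 to 6.55). A 2 kb window was called marked with at least 10 reads and 5 times the mean background. WT had 13 marked windows and Lsh_KO 3, all of which were marked in WT too. Those of Lsh_KO began at 60212001, 60214001 and 60218001, and the last held 13 Lsh_KO reads. The 13 held 716 reads in WT and 140 in Lsh_KO, which was 7.27-fold lower (6.06 to 8.77). The 52 unmarked windows held 138 and 76 reads, 2.58-fold lower (1.94 to 3.46).

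A window was called lower when it held at least 20 reads in both libraries together, the ratio was at least 2-fold lower and the interval excluded 1. In the stretch 10 windows held enough reads and 10 were called lower, against 5.80% of 21163 windows over the genome. The same reads picked the stretch, so nothing is read from that count. None of the 10 was called higher (3.45% over the genome).

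The mark was not lowered evenly along the stretch. Segments were set from the Hand2os1 start after the profile had been seen. In the 10 kb before it, along which Hand2os1 is transcribed, WT held 239 reads and Lsh_KO 11, 30.9-fold lower (16.9 to 62.7). In the 2 kb from it, which begin with the Hand2 start, WT held 119 and Lsh_KO 84, 2.01-fold lower (1.51 to 2.69). In the 7 kb after that, WT held 215 and Lsh_KO 36, 8.49-fold lower (5.94 to 12.4). In the block from 10 to 15 kb, with the Gm34030 start, they held 125 and 9, 19.7-fold lower (10.1 to 44.2). These values describe segments drawn on the profile itself, and their differences were not tested.

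Bins of 1 kb were counted from the Hand2os1 start, so a bin boundary lies there by construction and the bins do not locate an edge. From 2 to 1 kb before the Hand2os1 start WT held 72 reads and Lsh_KO 0, at least 27.03-fold lower by the exact interval, and 34.1-fold with the 0 set to a floor of 3 reads in that bin. In the last 1 kb before the start they held 69 and 4, 24.5-fold lower (9.15 to 92.5). In the first 1 kb after it they held 39 and 48, a ratio of 0.87 (0.56 to 1.36), so that no difference was detectable there at this depth, and the ratio turned to 1.09 (0.70 to 1.71) when scaled by total reads. From 1 to 2 kb WT held 80 and Lsh_KO 36, a ratio of 0.32 (0.21 to 0.47), and from 2 to 3 kb 78 and 10, a ratio of 0.090 (0.042 to 0.17). The Lsh_KO reads were thus highest where WT had a dip between its peaks, and fell to 10 or fewer per 1 kb from 2 kb on.

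**Figure D2:**
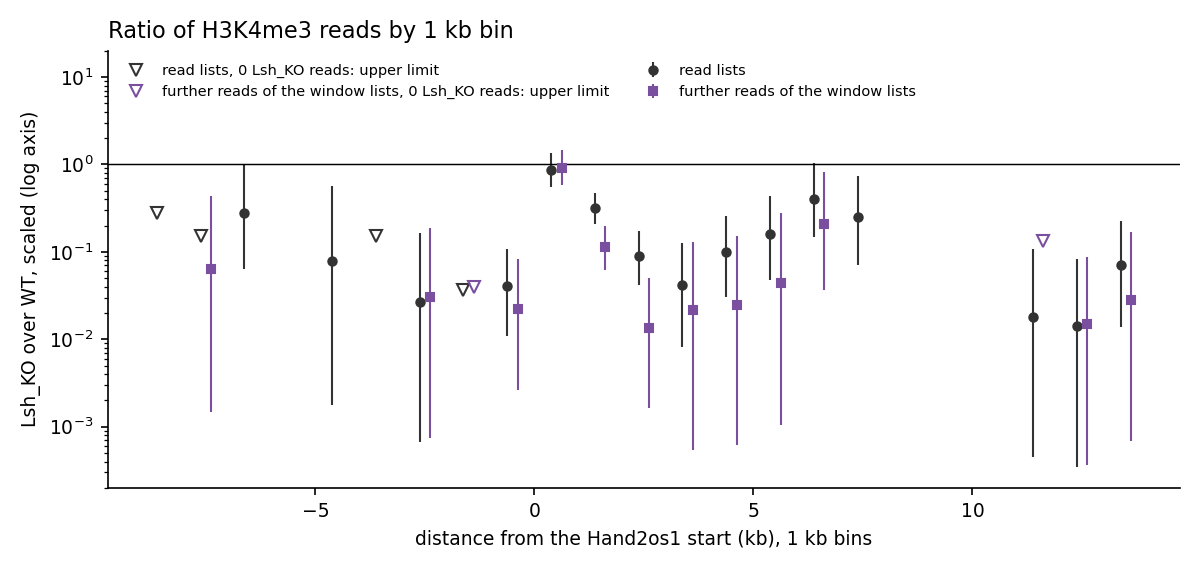
Scaled ratio of Lsh_KO over WT on a log axis in bins of 1 kb by distance from the Hand2os1 start, with exact 95% intervals for counting error, for the read lists (circles) and for the further reads of the window lists (squares). Open triangles are upper limits where Lsh_KO had 0 reads, and bins with fewer than 10 reads are left out. The first bin after the start had a ratio of 0.87 and 0.91 in the respective kinds of reads, and the bin from 2 to 1 kb before it had 0 Lsh_KO reads in both.

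The deposited window lists counted more reads than the distinct reads of the read lists, by 678 in WT and 126 in Lsh_KO over the stretch, and the labels do not state the origin of these further reads. They can include the repeats that were taken out of the read lists, 358 in WT and 39 in Lsh_KO, and at least 354 and 87 exceeded the repeats of their own 200 bp window. They are therefore no independent measurement, and are given as a second count of the same samples. In the 10 kb before the Hand2os1 start they numbered 186 in WT and 9 in Lsh_KO, 29.6-fold lower (15.3 to 65.7). In the first 2 kb they numbered 127 and 62, 2.93-fold lower (2.15 to 4.04). In the first 1 kb alone they numbered 36 and 47, a ratio of 0.91 (0.58 to 1.45). In the next 7 kb they numbered 197 and 11, and in the Gm34030 block 99 and 5. From 2 to 1 kb before the start WT had 67 and Lsh_KO 0.

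Of the reads in the 25 kb from 10 kb before to 15 kb after the Hand2os1 start, the first 2 kb took 17.0% in WT and 59.2% in Lsh_KO. The 10 kb before took 34.1% and 7.75%, the 7 kb from 2 to 9 kb took 30.7% and 25.4%, and the Gm34030 block took 17.8% and 6.34%. The sides of the start differed in Lsh_KO on both strands. In the 10 kb before the start WT had 96 forward and 143 reverse reads and Lsh_KO 4 and 7. In the first 2 kb WT had 66 and 53 and Lsh_KO 53 and 31. Reads were moved 75 bp from their first base, towards the middle of the nucleosome. The nearest such Lsh_KO read after the Hand2os1 start lay 176 bp from it, and the nearest before it 129 bp. In WT the nearest lay at 139 and -55 bp, so the edge was not resolved within these gaps.

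**Figure D3:**
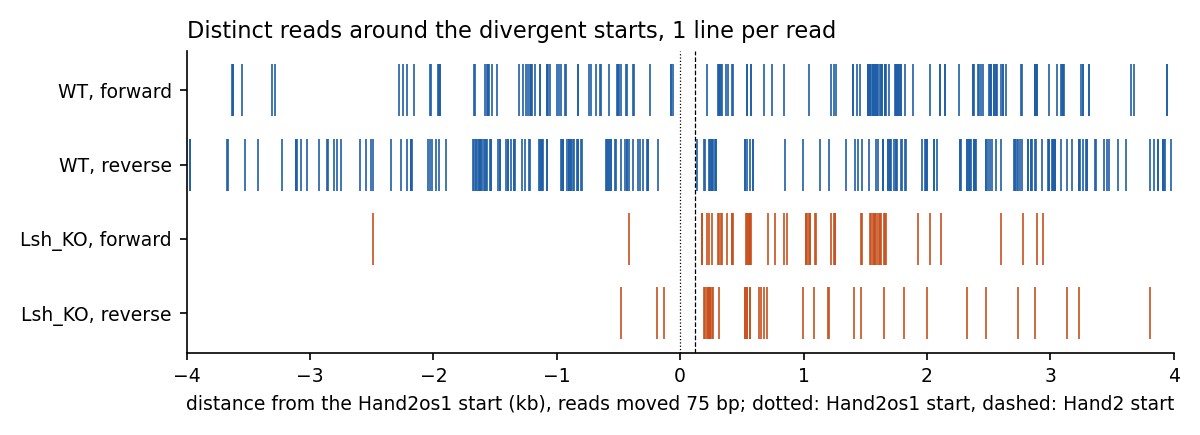
Distinct reads within 4 kb of the Hand2os1 start, 1 line per read at its moved position in kb (x axis), by library and strand (rows), with the Hand2os1 start dotted and the Hand2 start dashed. WT reads lay on both sides of the starts, and Lsh_KO reads lay almost all after them, 4 being found in the last 1 kb before and 48 in the first 1 kb after the Hand2os1 start.

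Measured within 2 kb either side of its own start, Hand2 held 258 reads in WT and 90 in Lsh_KO, 4.07-fold lower (3.19 to 5.24), a value that averages these unlike sides. Within 500 bp either side it held 46 and 41, 1.59-fold lower (1.02 to 2.49), and within 10 kb 576 and 134, 6.11-fold lower (5.05 to 7.43). Hand2os1 shares most of these reads and held 260 and 88 within 2 kb. Gm34030 held 120 and 8 within 2 kb, 21.3-fold lower (10.5 to 50.5). Among all placed promoters with at least 20 reads within 2 kb, 4.74% were called lower and 1.91% higher by the same rule.

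The sides of the Hand2 start were set beside those of other starts that were well marked in WT. Of the placed promoters, 285 had at least 50 WT reads in the 2 kb before and in the 2 kb after their start, and neighbouring ones share reads. At Hand2 the log2 ratio, with 0.5 added to each count, was -5.40 before the start and -1.04 after it, a difference of 4.35. Across the 285 that difference had a median of -0.03, and its central 90% ran from -0.62 to 0.59. Hand2os1, which reads the same starts from the other side, had -4.47. The next in size was 5730596B20Rik on chromosome 6, in the HoxA stretch, at -3.26, with 75 WT and 103 Lsh_KO reads before its start and 66 and 9 after it. All the others lay between -0.95 and 0.95. These are the reads that picked the stretch, and a start with a side low in WT and high in Lsh_KO could not enter, so the order is a description of starts marked on both sides in WT.

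**Figure D4:**
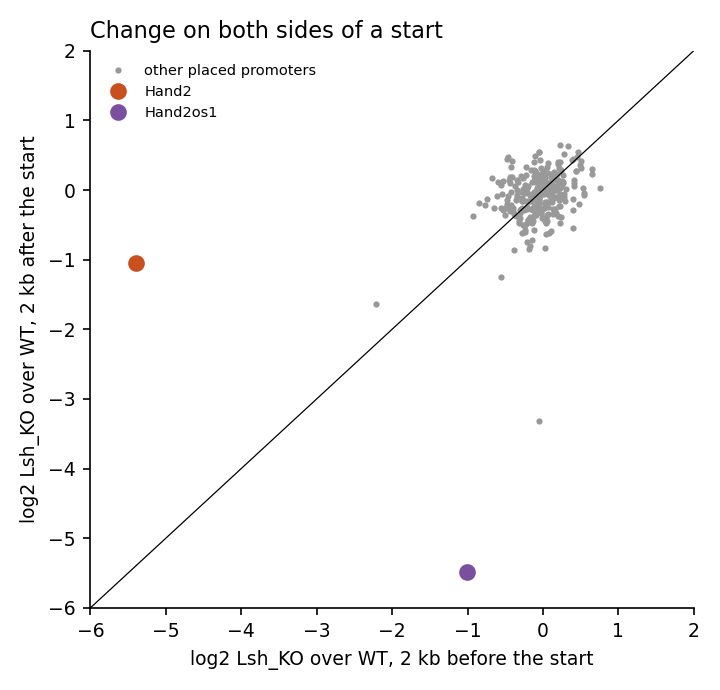
The log2 ratio of Lsh_KO over WT in the 2 kb before (x axis) and the 2 kb after (y axis) the start of 285 placed promoters, each a point, with the line of equal change. Hand2 lies at -5.40 and -1.04 and Hand2os1 at its mirror position, away from the cluster of other promoters near 0.

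Base composition differed between segments. The reads of both libraries in the first 2 kb had a GC content of 60.9% and an observed over expected CpG of 0.70, from 174 read positions. In the 10 kb before, these were 49.9% and 0.39, in the 7 kb after 51.6% and 0.45, and in the Gm34030 block 51.3% and 0.57. In the last 1 kb before the Hand2os1 start these were 49.9% and 0.70, from 71 read positions. From 2 to 1 kb before it they were 51.7% and 0.17, from 72 read positions. The values come from the bases of reads, which before the start were nearly all from WT. The part of base composition in the result was not tested.

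Outside these 25 kb the remaining 105 kb of the stretch held 1.46 reads per kb in WT (153 reads) and 0.705 in Lsh_KO (74 reads), 2.94-fold lower (2.21 to 3.93) on the scale of marked windows. These 105 kb include windows marked in WT, beginning at 60198001 (10 WT and 1 Lsh_KO reads) and 60236001 (12 and 1). The scale of marked windows divides by 1.42, while mean background was 1.72 reads in each library. The fold above and the background ratios that follow are therefore not directly comparable. Background windows within 1 Mb of the stretch held 1280 and 1272 reads, a ratio of 0.99 (0.92 to 1.07) relative to the background of all chromosomes. The 5 Mb bin that contains the stretch stood at 0.95 (0.90 to 1.002) and all of chromosome 8 at 1.02 (1.01 to 1.03). Of the placed promoters of protein-coding genes, the nearest on either side were not called. Sap30, a subunit of a histone deacetylase complex, starts 166877 bp beyond Hand2 and held 124 and 186 reads, a ratio of 1.06 (0.84 to 1.34). Fbxo8, an F-box protein gene, starts on the other side, at -769829 bp from Hand2, and held 86 and 135, a ratio of 1.105 (0.84 to 1.47).

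The width left in Lsh_KO was also measured for the other wide WT regions. Of 93 WT regions of at least 5 kb, the median was covered to 96.4% by Lsh_KO regions (quartiles 75% and 100%), and the Hand2 region to 16.4%. It was among 4 at or below that value. The other 3 were covered to 0%: chromosome 9 from 24518801 to 24524800 with 424 WT reads, chromosome 11 from 96098601 to 96103600 with 257, and chromosome 2 from 165069201 to 165074200 with 108. At 18.9% and 19.2% followed a region of 7400 bp that holds the Hoxa2 start on chromosome 6 and one of 10400 bp on chromosome 14 from 62192401 to 62202800. The Hand2 region was the widest of these 6. The regions were chosen by their width in WT, where the Hand2 domain is high, so its place among them is a description. In the converse, 102 Lsh_KO regions of at least 5 kb were covered by WT regions to a median of 88.9% (quartiles 72.3% and 96.2%). Of them 0 were covered to 16.4% or less. Regions were drawn with the same minimum of reads in both libraries and without scaling, so the medians cannot be compared directly.

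**Figure D5:**
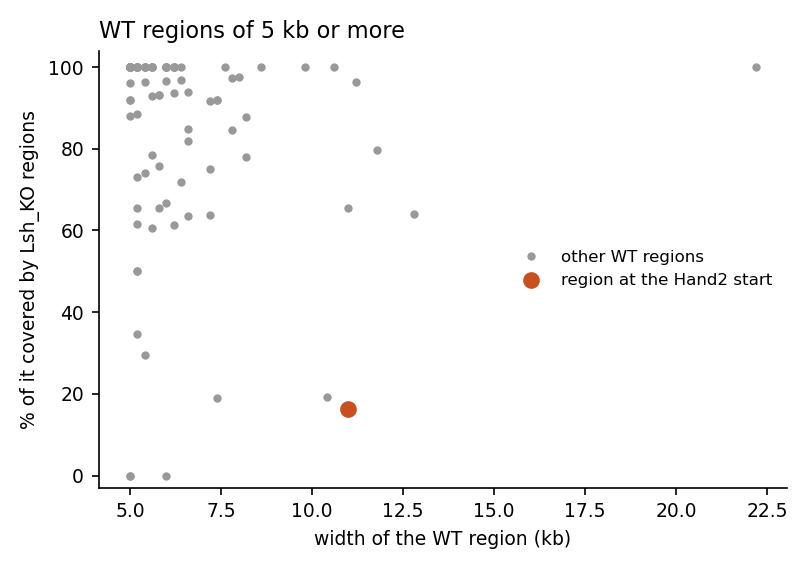
Percent of each WT region that is covered by Lsh_KO regions (y axis) against its width in kb (x axis), for the 93 WT regions of 5 kb or more. The region at the Hand2 start, 11000 bp wide, is covered to 16.4%, and most others are covered to 75% or more.

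By level in both libraries, the placed promoter most like Hand2 was Gm15050 on chromosome 6, in the HoxA stretch. Likeness was the distance between log2 reads within 10 kb of the start in the 2 libraries, with at most 1 promoter per 20 kb. It used the Lsh_KO level too, so it favours promoters that are lower in Lsh_KO, and their ratios are a description. Gm15050 held 411 reads in WT and 219 in Lsh_KO, which was 2.67-fold lower (2.26 to 3.16), at a distance of 0.85. Ehbp1l1, Slc9a3r1, Anapc2 and Snai1 followed at 1.29 to 1.42. Snai1, a zinc-finger repressor known for its role in mesenchymal transition, held 230 and 93, 3.51-fold lower (2.75 to 4.52). The other 3 held 276 to 365 WT and 224 to 305 Lsh_KO reads.

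Most other listed genes that could be placed and tested were not called. Of 27025 genes in the reference table of promoters, 16097 were placed. A promoter with no read in its 300 bases could not be, which leaves out many unmarked ones. The 4 lists were Twist-family factors and partners, the Hand2 network, transcription factors that mark position along the body, and the DNA methylation machinery. Of their 78 genes together, 42 were placed, 35 had at least 20 reads, 5 were called lower and 0 higher, at 2 kb either side. The median log2 ratio of the 35 was -0.16, against 0.03 for all placed promoters tested. Without Hand2, 4 of 34 were lower (11.8%, against 4.74% of all placed promoters), and when scaled by total reads the 5 became 2, Hand2 and Ptf1a. Within 500 bp of the starts 1 was called, Tet1, and Hand2 was not. With a minimum of 10 reads 7 were lower, the same 5 with Fgf10 and Ednra. The share of 4.74% over all placed promoters belongs beside the count of each list below.

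Among the Twist-family factors and their partners, 9 of 14 were placed, 6 had enough reads, and Hand2 and Ptf1a were called lower. Ptf1a, a pancreatic and neural factor, was not marked in either library and held 17 and 3 reads, 8.05-fold lower (2.33 to 42.9). Twist1, a mesenchymal factor, held 81 WT and 103 Lsh_KO reads, a ratio of 0.89 (0.66 to 1.21). Twist2 held 75 and 109, a ratio of 1.02 (0.76 to 1.39). The E proteins Tcf3 and Tcf12, with which these factors dimerise, had ratios of 0.93 (0.66 to 1.32) and 0.93 (0.70 to 1.26). Hand1, the nearest relative of Hand2, could not be placed.

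Of 24 genes of the Hand2 network in heart, limb, pharyngeal arch and sympathetic neurons, 11 were placed, 8 had enough reads and 1 was called lower. It was Grem1, a secreted BMP inhibitor of the limb bud, with 65 WT and 43 Lsh_KO reads, 2.15-fold lower (1.44 to 3.24). Bmp4, a signal that Grem1 binds, held 74 and 149, a ratio of 1.42 (1.07 to 1.90), short of 2-fold. Gli3, a mediator of hedgehog signals, held 97 and 140, a ratio of 1.02 (0.78 to 1.33). Gata3, a factor of sympathetic neurons, held 50 and 62, a ratio of 0.87 (0.59 to 1.29), and its relative Gata2 held 35 and 27, a ratio of 0.54 (0.32 to 0.92), short of 2-fold. Msx2, a homeobox factor of limb and face, held 16 and 10, a ratio of 0.44 with an interval that included 1 (0.18 to 1.03). Edn1 and Isl1 had ratios of 1.05 (0.75 to 1.49) and 0.92 (0.46 to 1.89). The 3 placed members under the minimum of 20 reads were Fgf10, a limb bud growth factor, with 17 and 1 reads, 24.2-fold lower (3.79 to 1010), Ednra, the endothelin receptor, with 14 and 4, 4.97-fold lower (1.56 to 20.8), and Mef2c with 0 and 4. Gata4, Gata6, Nkx2-5 and Tbx5, known as heart factors, could not be placed.

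Of 32 transcription factors that mark position along the body, 12 were placed, all with enough reads, and 1 was called lower. It was Zic1, with 21 and 14 reads, 2.13-fold lower (1.03 to 4.53). Emx2 held 166 and 198, a ratio of 0.84 (0.68 to 1.04), and Tbx18 held 102 and 175, a ratio of 1.21 (0.94 to 1.56). Irx3 held 53 and 40, a ratio of 0.53 (0.34 to 0.82), short of 2-fold. All 10 genes of the DNA methylation machinery were placed, 9 had enough reads and Tet1, a methylcytosine dioxygenase, was called lower with 48 and 28 reads, 2.44-fold (1.498 to 4.03). The promoter of Hells, on chromosome 19, held 89 and 133, a ratio of 1.05 (0.80 to 1.39). It does not check the deletion, whose place the labels do not give.

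The libraries were of similar size. WT held 2869399 aligned and 2471782 distinct reads, and Lsh_KO 3428628 and 2790389. In the stretch 29.5% of WT and 15.3% of Lsh_KO reads repeated a position and strand, against 13.9% and 18.6% in the libraries, and 16.5% and 16.1% carried a mismatch, against 15.5% and 15.2%. Of 15 fibroblast and mesenchyme markers 7 were placed, of which 7 were marked in WT and 6 in Lsh_KO. The 7 placed markers, marked or not, held 29 to 198 reads in WT and 6 to 316 in Lsh_KO. Of these 7, 2 were called lower and 0 higher, against 4.74% and 1.91% of all placed promoters with at least 20 reads. Col1a2, a collagen chain, held 67 and 20 reads, 4.76-fold lower (2.85 to 8.28), and S100a4 held 29 and 6, 6.87-fold lower (2.80 to 20.2). Fbn1, a microfibril protein, was short of 2-fold at a ratio of 0.57 (0.43 to 0.76). Ratios above 1 were found at Col3a1, another collagen chain (1.51, 1.06 to 2.17), Prrx1, a mesenchymal factor (1.31, 1.004 to 1.72), and Vim, an intermediate filament (1.12, 0.94 to 1.35), and Col5a1 stood at 0.83 (0.66 to 1.05). Of 6 epithelial markers 2 were placed, both marked in Lsh_KO and not in WT, and 1 was called higher (1.91% of all placed promoters). It was Krt18, a keratin of simple epithelia, with 6 and 61 reads, 7.15-fold higher (3.10 to 20.3). The other, Epcam, an epithelial adhesion molecule, held 14 and 18, a ratio of 0.90 (0.43 to 1.97). Kdr, the placed endothelial marker of 4, was marked in both libraries, and the 3 heart muscle markers of 5 and 2 pluripotency markers of 4 that were placed were marked in neither. Of 4 blood and 4 neural markers 0 were placed. The part of these marker differences in the result at Hand2 was not tested.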

How the data were processed

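H3K4me3 ChIP-seq was measured in 1 WT and 1 Lsh_KO fibroblast library. The members and the gene lists were chosen with earlier results of these data known. The authors deposited, per library, a list of aligned 25-base reads with an alignment score, and whole-number read counts in 200 bp windows, both on mm8 per the submitters' processing notes and not normalized as far as their values show. The aligner and the counting rule are not given in the sources used here. When each position and strand was counted once, at 100 bp from the leftmost base in reading direction, 0 deposited windows fell below that count, and the excess, which can include repeats, was used as further reads.

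Distinct reads were moved 75 bp and counted in 2 kb windows. Background was the mean over covered windows in which neither library reached 10 reads (1.72 reads each). Intervals and floors cover counting error only, and amplified reads are not independent molecules. No mm8 genome was used here, so starts were placed by read sequence, and 4 promoter sequences whose reads gave several positions were left out. Genes named by rule are Hand2, Hand2os1, the 3 genes on each side, every list member called, and the 5 promoters most like Hand2 by distance of log2(reads + 1), Lsh_KO scaled. Other genes and regions named, and the segments, were chosen after their values were seen. The calling rule was tested on simulated data. These were drawn with counting error only, so variation between libraries was not covered. Computation was in Python 3.11.15 with scipy 1.17.1 for the intervals, pandas 2.3.3 and numpy 2.4.6 for the tables, and matplotlib 3.10.9 for the figures. Alternatives covered scaling, repeats, shift, score, source of counts, depth, window size, minimum of reads, fold, region rule and width around starts.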

Additional observations from a re-analysis of the deposited data

How the results depend on the processing

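No ratio over the stretch, its marked windows, the first 2 kb or the 10 kb before changed direction under the alternatives run. In the first 1 kb after the Hand2os1 start the ratio of 0.87 became 1.09 by total reads and 1.21 by the chromosome's background, with intervals that include 1. Scaling by total distinct reads raised every log2 ratio by 0.33. It gave 0.173 over the marked windows, 0.224 over the stretch and 3.45% of all 2 kb windows lower, with 1837 higher against 730 lower calls in place of 730 and 1228. It left 2 listed promoters lower. Scaling by background windows of the chromosome raised them by 0.48 and gave 0.192, 0.248 and 2.38% (2848 higher, 503 lower), with 0.342 at the Hand2 start and 0.692 in the first 2 kb. Keeping all reads gave 0.109 over the marked windows, 0.140 over the stretch, 0.175 at the start, 0.359 in the first 2 kb and 8.85% of windows. The further reads alone, a choice made after seeing the data, gave 0.0954, 0.130, 0.173 and 0.341 in that order. The percentage of all windows called lower was 11.4% with deposited window counts, 3.85% in 1 kb windows, 10.7% in 5 kb windows and 1.37% with no minimum of reads, which called 18 windows of the stretch. In the other alternatives 7 to 13 were called. Around the Hand2 start the ratio was 0.627 within 500 bp and 0.164 within 10 kb. With at least 4 reads per window the covered length in Lsh_KO was 3000 bp. Within 500 bp of the starts 1 listed promoter was lower. The cause of these changes was not tested. The ratio in the 10 kb before the Hand2os1 start ranged from 0.0247 to 0.0451. An overlap of at least 50% was not run, since the covered length uses no overlap. No paired analysis was possible because each genotype had 1 library, and no replicate could be left out. Segments with few Lsh_KO reads have wide intervals, and promoters without a read in them could not be placed.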
